A study of Mus musculus with 2 samples.

Results

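Distal regions were followed that were open in both cultures but had far higher coverage in the culture with TAMos. There were 5966 of them, 7.01% of the 85125 distal regions with a peak in both libraries. They are part of the 190617 regions with a peak in either. A region joined the overlapping peaks of both libraries, distal meant over 1 kb from every start site of a protein-coding gene, and members were chosen by their read coverage at the summit, which after division by each library's most frequent background was 4-fold or more above vehicle in TAMo. Assay for transposase-accessible chromatin (ATAC-seq) was run on CD8+ T cells of the mouse OT-I strain (genotype given as WT), which carry a transgenic receptor for an ovalbumin peptide. The T cells were stimulated for 48 h with that peptide, OVA257-264, and shared their culture with either vehicle or TAMos, the CD11b+Ly6G-Ly6Chigh cells of spleens from mice bearing LLC (Lewis lung carcinoma) tumours. Both groups thus carried the same receptor and received the same peptide, and about 50000 sorted CD8+ T cells entered each library. The sources used here do not give the age or sex of the mice or the number of donors. With a single library per culture, the differences below have no replicate check, and no p-value was computed. Intervals cover counting error only, and reads are not independent molecules.

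In ATAC-seq a transposase inserts sequencing adapters where DNA is free of nucleosomes, so read coverage follows how accessible a site is. Distal open regions include enhancers, at which transcription factors bind and act on genes that may lie far away, and sites of CTCF, a factor that anchors chromatin loops. AP-1, the dimer of Fos and Jun family proteins and their relatives such as BATF, is induced by T cell receptor signalling and binds many enhancers of activated T cells.

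Sequence could be read at 244 of the 5966 members (4.94%) and at 4728 of the 85125 shared distal regions (6.76%), where RefSeq promoter windows or GENCODE M21 transcripts (both GRCm38, the assembly of mm10) covered the TAMo summit and the 100 bp on either side. These windows lie in transcribed or promoter DNA of noncoding genes, alternative transcripts and exons, so they are a particular part of the regions. The AP-1 letters TGANTCA, in which N is any base, were in 39.8% of the member windows, and the CTCF letters, which are CC, any 3 bases, AG, any 2 bases and GGC, were in 2.05%. The following shorter windows, of 50 bp on either side of the summit, show both. They were chosen after the values were seen, from windows outside coding sequence whose summits in both libraries lay within 100 bp: the members are those of largest ratio with and without AP-1 letters, and the regions for contrast are those of highest TAMo coverage with CTCF letters and a log2 ratio within 0.5 of 0. The first 5 are members that hold AP-1 letters, shown in capitals on the plus strand. They come from a processed transcript of Fbrsl1 (chr5:110430357-110430457), a retained intron of Smim14 nearest to Ugdh (chr5:65457999-65458099), the antisense gene Gm10564 beside Plch2 (chr4:155044604-155044704), the RefSeq promoter of A530046M15Rik nearest to Inhba (chr13:15807144-15807244) and a retained intron of Apbb2 (chr5:66542638-66542738).
Fbrsl1: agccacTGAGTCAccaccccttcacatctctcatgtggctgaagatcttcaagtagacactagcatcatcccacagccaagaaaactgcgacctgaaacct
Ugdh: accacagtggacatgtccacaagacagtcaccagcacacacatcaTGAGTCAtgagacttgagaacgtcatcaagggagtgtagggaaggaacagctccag
Plch2: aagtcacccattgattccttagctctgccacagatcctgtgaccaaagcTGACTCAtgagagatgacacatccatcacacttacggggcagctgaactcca
Inhba: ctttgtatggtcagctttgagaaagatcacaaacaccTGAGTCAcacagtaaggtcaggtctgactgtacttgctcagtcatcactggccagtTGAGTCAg
Apbb2: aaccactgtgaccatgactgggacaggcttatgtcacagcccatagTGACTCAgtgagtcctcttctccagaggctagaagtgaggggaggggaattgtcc
The Fbrsl1 region had a summit coverage of 25 reads in vehicle against 479 in TAMo, a ratio of 15.5 after depth scaling (95% interval 10.4 to 24.3). At the region near Ugdh it was 28 and 499 reads (ratio 14.5), near Plch2 it was 23 and 283 reads (ratio 9.98), near Inhba 24 and 275 reads (ratio 9.29) and at Apbb2 22 and 224 reads (ratio 8.26). All 5 had 22 to 28 reads in vehicle, where the usual background was 4.71 reads. The window near Inhba holds the letters at 2 places. Its summit lay 204657 bp from the start site of that gene, beyond the 100 kb used below to assign regions to genes.

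The next pair are members with larger ratios that hold no AP-1 letters. They lie in retained introns of Slc6a6, the taurine transporter gene (chr6:91726796-91726896), and LTO1 (chr7:144921796-144921896).
Slc6a6: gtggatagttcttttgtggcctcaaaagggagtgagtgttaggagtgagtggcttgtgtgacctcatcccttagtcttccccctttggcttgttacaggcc
LTO1: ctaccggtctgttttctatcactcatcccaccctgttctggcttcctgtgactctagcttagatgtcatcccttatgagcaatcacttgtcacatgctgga
At Slc6a6 there were 49 reads in vehicle against 1147 in TAMo, a ratio of 19.0 (14.3 to 25.8), and 21 and 417 reads at LTO1, a ratio of 16.1 (10.4 to 26.3).

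For contrast, a pair of strong regions of near-equal coverage hold the CTCF letters, in capitals here in either orientation. They lie at the RefSeq promoter of Gm38326, nearest to P2ry1 at a distance of 214549 bp (chr3:60788196-60788296), and in a retained intron of Setd1b (chr5:123149831-123149931). The first also holds an AP-1 match, left in lower case near its start.
P2ry1: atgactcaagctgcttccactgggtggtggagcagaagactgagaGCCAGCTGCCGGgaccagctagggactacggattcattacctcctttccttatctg
Setd1b: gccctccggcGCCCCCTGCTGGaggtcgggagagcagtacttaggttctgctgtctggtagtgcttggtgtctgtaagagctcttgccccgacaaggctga
Near P2ry1 there were 735 reads in vehicle against 749 in TAMo, a ratio of 0.826 (0.745 to 0.916), and 535 and 704 reads at Setd1b, a ratio of 1.07 (0.952 to 1.20).

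The members were weak peaks in vehicle and strong peaks in TAMo. Vehicle summit coverage ran from 13 reads through a median of 33 reads (quartiles 23 and 52) to 333 reads, and TAMo coverage from 70 reads through 257.5 reads (quartiles 170 and 398) to 1969 reads. Over all shared distal regions the medians were 67 reads in vehicle and 127 reads in TAMo. The median ratio of the members was 5.41 and the highest was 33.4; the ratio reached 8 in 1040 members and 16 in 97. These values chose the members and are a description. In a bulk library, more cells with a region open and more opening per cell cannot be told apart. Fewer regions differed the other way: 332 shared distal regions (0.39%) were at least 4-fold lower, and 3131 (3.68%) at least 2-fold lower. Of the regions past 4-fold in either direction 94.7% were thus higher. With the median of shared distal regions set to equality 3285 were higher and 799 lower (80.4% higher), and with the peak caller's local background around each summit 1509 were higher and 42 lower (97.3%). Across all shared distal regions the median log2 ratio was 0.38, against 0.05 at shared promoter regions, where 0.78% were at least 4-fold higher.

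**Figure D1:**
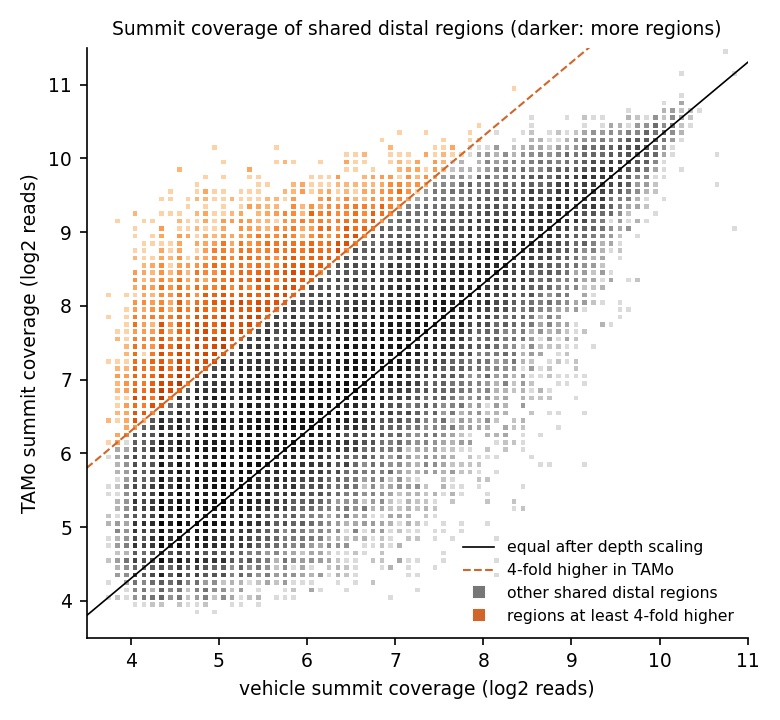
Summit coverage in the vehicle library (x axis, log2 reads) against the TAMo library (y axis, log2 reads) for 85125 shared distal regions, counted in squares and darker where more regions fall; orange squares are the 5966 regions at least 4-fold higher, the solid line marks equal coverage after depth scaling and the dashed line 4-fold. The orange cloud sits over low vehicle coverage, with a median of 33 reads.

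The precision of a single region is limited by its vehicle reads. For 2628 members (44.0%) the 95% exact binomial interval of the ratio lay wholly above 4. At the edge of the set, a region near Rflnb and another near Abcc4 each had 30 reads in vehicle and 148 reads in TAMo (ratio 4.0, interval 2.69 to 6.14), and a region near Rapgef2 with 74 and 365 reads fell just outside, with an interval of 3.11 to 5.21. Regions on either side of the line are not told apart by counting. In the lowest decile of vehicle coverage (13 to 24 reads) 17.5% of shared distal regions were members, and in the highest decile (316 reads or more) 0.0118%, which was 1 region. By decile of TAMo coverage the share peaked at 15.6%, between 325 and 508 reads. The choice of members by their ratio shapes both trends.

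Members were wider than shared distal peaks as a whole, and their summits in both libraries lay somewhat farther apart. Their joined intervals had a median width of 504 bp against 377 bp over all shared distal regions. The summits of both libraries lay a median of 15 bp apart, against 11 bp overall. They were within 25 bp of each other in 69.8% of members and 78.5% of all shared distal regions, and within 100 bp in 93.8% and 95.3%. At least 2 TAMo summits were called in 28.3% of members (95% Wilson interval 27.2 to 29.5%) against 22.8% overall. The local background that the authors' peak caller used around the summit was also higher in TAMo at these sites, with a median of 14.9 reads against 5.05 reads in vehicle. Division of each summit by that local background in place of 1 value per library gave the 1509 regions named above. Width, number of summits and local background come from the same reads as the coverage that chose the members. The choice can shape these values, which are a description.

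Members lay more often in introns and farther from genes' start sites than shared distal regions as a whole. The TAMo summit was in an intron of a protein-coding gene in 55.3% of members (54.0 to 56.6%), against 51.5% of all shared distal regions and 48.8% of those at least 2-fold lower. Exons held 2.98% against 4.0%, noncoding genes 6.72% against 7.11%, and the space between genes 35% (33.8 to 36.2%) against 37.4%. The median distance to the nearest start site of a coding gene was 29570 bp for members and 23424 bp for all shared distal regions. A distance over 10 kb was found for 80.9% of members (79.9 to 81.9%) against 74.0%; regions at least 2-fold lower were similarly far, with 80.2% over 10 kb and a median of 30184 bp. The share of members was higher at each step of distance, from 3.83% at 1 to 5 kb from a start site to 8.57% beyond 100 kb. Members occurred on all 19 autosomes, from 5.90% of the shared distal regions of chromosome 19 to 7.93% on chromosome 5. The lists held peaks on chromosomes 1 to 19, and sex chromosomes were not analysed here.

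**Figure D2:**
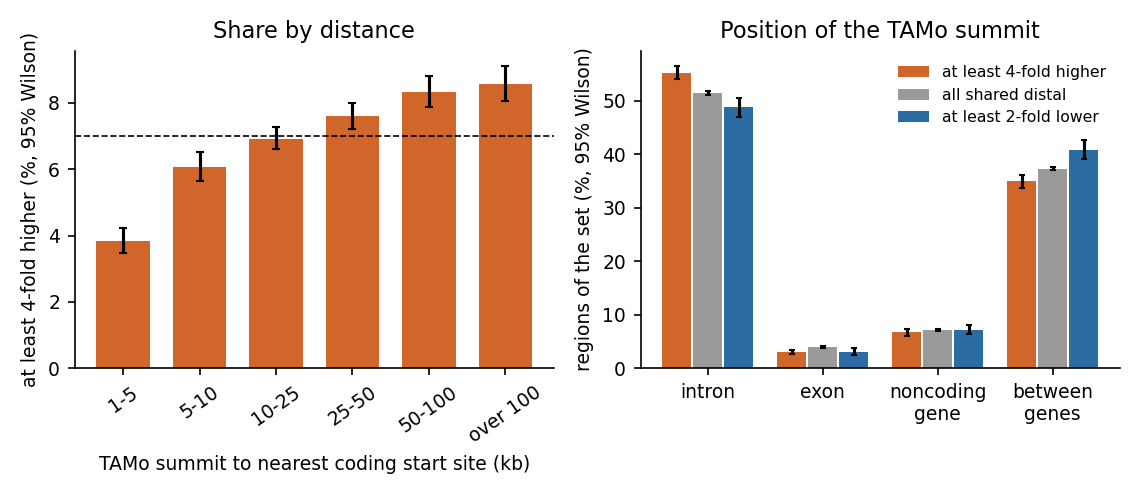
Left, the share of shared distal regions at least 4-fold higher in TAMo (%) by distance of the TAMo summit from the nearest coding start site in kb, with the share over all distances (7.01%) dashed. Right, where the TAMo summits of the members, of all shared distal regions and of those at least 2-fold lower lie; bars are percentages, error lines are 95% Wilson intervals, and introns hold 55.3% of members.

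Members lay near one another. Another member was found within 10 kb of 21.6% of members (20.6 to 22.7%), whereas a member lay that close to 14.6% of regions 2-fold to 4-fold higher (14.1 to 15.2%), to 8.70% of other shared distal regions (8.50 to 8.89%) and to 3.42% of those at least 2-fold lower (2.84 to 4.11%). Within 50 kb these shares were 52.2%, 44.1%, 37.1% and 26.9%. Regions that nearly adjoin but do not overlap count separately, as with the members chr1:88680393-88680686 and chr1:88680689-88681119 nearest to Arl4c. Such pieces of what may be one open stretch are included in these shares, and their part was not counted. Shared distal regions that were not members also had higher ratios close to one: their median log2 ratio was 0.90 within 5 kb of a member (2969 regions), 0.48 at 5 to 10 kb and 0.23 beyond 100 kb.

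The sequence under the summits was not used to choose the members, and it differed from that of other regions. AP-1 letters were found in 97 of 244 member windows, 39.8% (33.8 to 46.0%), against 21.6% of 4484 windows of other shared distal regions (20.4 to 22.8%), 22.5% of all 4728 and 20.4% of the 137 windows at least 2-fold lower (14.5 to 28%). CTCF letters were found in 5 member windows, 2.05% (0.878 to 4.71%), against 16.9% of the other windows (15.8 to 18%), 16.1% of all and 8.03% of those at least 2-fold lower (4.54 to 13.8%). Both strands were searched. From a log2 ratio of −1 upwards the shares moved by degrees with the ratio rather than at the 4-fold line. Below −1 they did not continue this trend, with AP-1 letters in 20.4% of windows and CTCF letters in 8.03%. AP-1 letters were in 15.9% of windows with a log2 ratio of −1 to 0, 24.1% at 0.5 to 1, 39.3% at 1.5 to 2, 41.2% at 2 to 2.5 and 37.5% (28.5 to 47.5%) at 2.5 or more, so the share was no higher in the top class. CTCF letters were in 22.5%, 13.2%, 3.82% and 3.38% of the classes up to 2.5, and in 0 of 96 windows at 2.5 or more, which allows a share of up to 3.85% by the Wilson interval. AP-1 letters lay within 25 bp of the summit in 48.5% of the member windows that held them and in 48.9% of the others. Among members at least 8-fold higher, 11 of 40 windows (27.5%) held AP-1 letters, against the background of 22.5%, but so few windows leave this share uncertain. In the shorter windows the AP-1 share did not fall at the top. It was 28.7% (22.4 to 35.8%) at a log2 ratio of 2 to 2.5 and 32.3% (24.7 to 40.9%) at 2.5 or more.

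**Figure D3:**
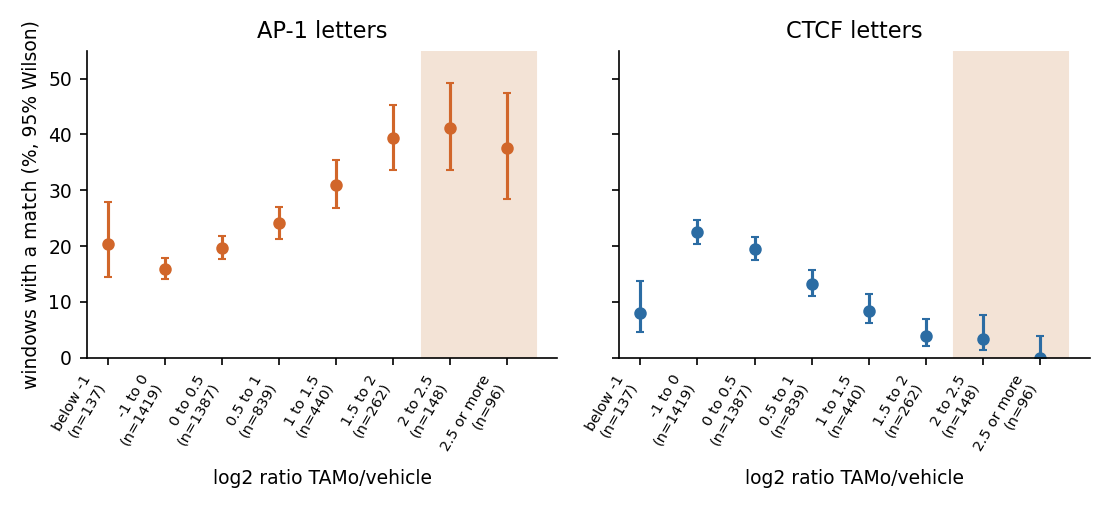
Share of windows of 100 bp on either side of the TAMo summit that hold AP-1 letters (left) or CTCF letters (right), in %, by class of log2 ratio of TAMo over vehicle coverage; points carry 95% Wilson intervals, n is the number of windows, and the shaded classes are the members. AP-1 letters are in 15.9% of windows at −1 to 0 and 41.2% at 2 to 2.5, and CTCF letters in 22.5% and 3.38%. Below −1 the shares are 20.4% for AP-1 and 8.03% for CTCF letters.

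Peak strength moves with both sets of letters, so windows were also compared at like TAMo coverage. At over 150 and up to 300 reads, AP-1 letters were in 50 of 103 member windows (48.5%, 39.1 to 58.1%) and 22.6% of 965 others. Above 300 reads the shares were 33.3% of 108 member windows (25.2 to 42.7%) and 32.6% of 974 others, so the AP-1 shares of members and other regions were not told apart among the strongest peaks. CTCF letters stayed rarer in members at both levels, with 3.88% against 18.9% and, above 300 reads, 0.926% (0.164 to 5.06%) against 10.1%. Base composition also differed: the median GC content was 49.3% in member windows and 51.7% in others, and the median number of CpG dinucleotides was 2 and 3. Coding sequence made up 13.9% of member windows and 19.2% of others. Outside it the AP-1 letters were in 84 of 210 member windows and in 23.7% of others, and the CTCF letters in 2.38% and 16.7%.

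Of the 25 sets of letters searched, most others were in under 10% of windows. The letters of NF-kB, which are GGGA, any 2 bases and TTCC and belong to a factor of antigen receptor and inflammatory signalling, were in 7 member windows (2.87%, 1.40 to 5.80%) against 1.12% of all windows, which was the greatest relative excess. T-box letters AGGTGTGA, of the family of T-bet and Eomes, were in 3.69% (1.95 to 6.86%) against 1.76%, and NR4A letters AAAGGTCA, of nuclear receptors induced by antigen, in 3.69% against 1.99%. Intervals this wide leave those differences close to counting error. RUNX letters TGTGGTTT were in 5.33% against 4.32% and PU.1-type letters GAGGAAGT in 2.87% against 2.96%. PU.1 is a factor of myeloid and B cells. CEBP letters TTGCNNAA, of another myeloid factor family, were in 6.97% (4.40 to 10.9%) against 6.18%. The E-box letters CAGCTG were in 13.5% against 15.7%, and CACGTG in 4.51% against 5.01%; CAGCTG can lie within the CTCF letters, as in the window near P2ry1. IRF letters, GAAA, any 2 bases and GAAA, were in 2.46% against 3.36%, GATA letters AGATAA in 4.92% against 6.22%, and ETS letters CAGGAAGT, which share GGAAGT with the PU.1 type, in 3.69% against 3.98%. TCF letters CATCAAAG were in 2.87% against 1.71%, FOX letters TGTTTAC in 2.87% against 1.78%, and KLF letters GGGTGTGG in 3.28% against 2.64%. NFAT letters ATGGAAAA were in 1.23% of both, and CRE letters TGACGTCA in 0.820% against 0.571%. No member window held STAT letters TTCCNGGAA, EGR letters GCGTGGGCG, the GFI letters (AAATC, any 2 bases, TGC) or the joint BATF and IRF letters (TTTC, any 4 bases, TGACTAA), which were in at most 0.613% of all windows. Letters rich in G and C were scarce in members: SP letters GGGGCGGGG were in 0.410% against 2.16%, and ETS letters CCGGAAGT in 0 of 244 (up to 1.55%) against 0.909%. The AP-1 letters also lie within the MAF letters searched, which add TGC before TGAGTCA and were in 0.820% of member windows against 0.465% of all. A match is a stretch of letters and not evidence that a factor was bound. Among all 2080 pairs of a hexamer and its reverse complement in the shorter windows, examined without choosing letters beforehand, the largest differences were GAGTCA, part of the AP-1 letters, with 32.5% of members and 19.0% of others, and at the other end AGAGGG with 5.08% and 14.1%.

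The largest ratios belonged to regions with little signal in vehicle. Among the 5002 members with at least 20 vehicle reads and summits within 100 bp, an intronic region 25843 bp from the start of Faap20, a Fanconi anaemia pathway gene, had 24 reads in vehicle and 929 reads in TAMo (chr4:155275482-155276146; ratio 31.4, 21 to 49.2). An intronic region 3700 bp from the start of Sulf2, an extracellular sulfatase of heparan sulfate, had 24 and 898 reads (chr2:166151227-166151804; ratio 30.3, 20.3 to 47.6). An intronic region near Frmd4a, which encodes a scaffold protein of cell polarity, had 31 and 1138 reads (chr2:4506591-4507310; ratio 29.8, 20.9 to 44.0). All 3 intervals lay above 20-fold, but these regions were picked for their large ratios, which the intervals do not allow for. Next came regions near Grhl1, a grainyhead-like transcription factor (20 and 722 reads), Fam167a (22 and 755 reads), Aldh8a1, an aldehyde dehydrogenase (22 and 695 reads), and Tmcc1 (27 and 808 reads). A region near Pag1 had 34 and 966 reads (chr3:9781727-9782349; ratio 23.0, 16.4 to 33.5); Pag1 encodes a membrane adaptor that recruits the kinase Csk and restrains T cell receptor signalling. The last of the 10 were near Gadd45g, a stress-induced gene, at a distance of 255747 bp (26 and 719 reads), and Ppargc1b, a coactivator of mitochondrial genes (25 and 680 reads). The highest ratio of all members, 33.4, came from 14 reads in vehicle and 576 reads in TAMo at a site 130193 bp from 1500015O10Rik.

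The members with the highest TAMo coverage had moderate ratios. The highest coverage, 1969 reads in TAMo and 333 reads in vehicle, lay in an intron near Sfi1 (chr11:3181200-3181676; ratio 4.79, 4.27 to 5.4). Its local background was 127 reads in TAMo and 72.2 reads in vehicle, many times the library's usual 5.80 and 4.71 reads, and 120 members had a local background at least 10 times the usual value in either library. Next were regions near Kif1c, a kinesin motor (253 and 1423 reads, ratio 4.56), Nrn1 (135 and 1320 reads, ratio 7.93, 6.64 to 9.54) and Slc45a4, a solute carrier (228 and 1275 reads, ratio 4.53). Nrn1 was only the nearest coding gene, at 266755 bp, beyond the 100 kb used to assign regions to genes. A region near Dgkd, a diacylglycerol kinase, had 252 and 1252 reads (ratio 4.03, 3.52 to 4.63). The region near Mterf4, a mitochondrial gene regulator, had 118 and 1198 reads (ratio 8.23), which counting does not tell apart from the ratio near Nrn1. The other regions of this set lay near Gm9817, Fbxl22, Tmem74b and Ywhaz, with 1201 to 1266 reads in TAMo and ratios of 4.06 to 6.38.

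A start site of a coding gene lay within 100 kb of 5034 members, 6.78% of the 74252 such shared distal regions. They were spread over 3477 of 13889 genes, of which 2457 had 1 member, 666 had 2, 237 had 3 and 117 had 4 or more. The nearest gene need not be the one a region acts on, and an intron named here can be that of another gene. Members that nearly adjoin count separately in these numbers per gene, as at Arl4c, Slc45a4 and Csf2rb. Samd4, which encodes an RNA-binding translational repressor, had 8 members among 16 shared distal regions, 7 of them in introns, over 178 kb. Their vehicle coverage was 17 to 77 reads and their TAMo coverage 127 to 577 reads. Arl4c, a small GTPase of the Arf family, had 8 of 27 (vehicle 24 to 158 reads, TAMo 253 to 841 reads).

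Of the other genes with the most members, Pde4d, a phosphodiesterase that degrades cAMP, had 7 of 55, and Aff1, a subunit of a transcription elongation complex, 7 of 16. Frmd4a had 7 of 22, of which the region described above had the largest ratio. Ppp1r3b, a subunit that targets a phosphatase to glycogen, had 6 of 15, all between genes, with 21 to 89 reads in vehicle and 137 to 605 reads in TAMo. Chdh, choline dehydrogenase, had 6 of its 9 shared distal regions among the members, the highest share of these genes (66.7%). Atxn2, an RNA-binding protein gene, had 6 of 14 within 28.7 kb of one another; the largest ratio there came from 29 reads in vehicle against 735 reads in TAMo (chr5:121758929-121759493; ratio 20.6). Slc6a6 had 6 of 15, with 34 to 75 reads in vehicle and 245 to 1147 reads in TAMo, and Slc45a4 had 6 of 15.

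**Figure D4:**
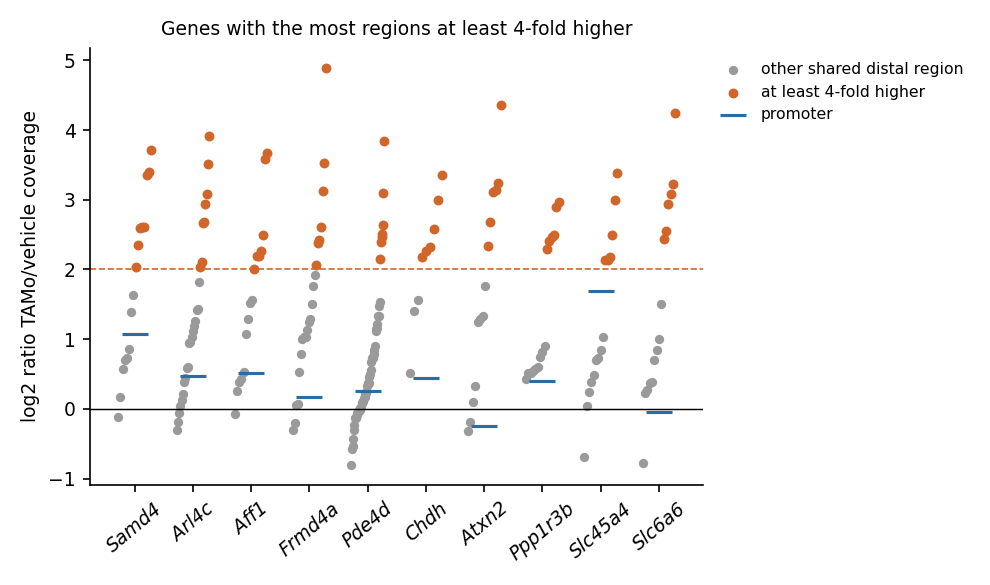
Log2 ratio of TAMo over vehicle coverage (y axis) for each shared distal region nearest to the 10 genes with the most members, orange where at least 4-fold higher and grey otherwise; blue dashes are the genes' promoters and the dashed line is 4-fold. Promoters run from −0.25 at Atxn2 to 1.69 at Slc45a4.

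Promoters were not used to choose these genes, and their values did not all lie on one side of 0. Where a gene had several shared promoter regions, the one with the highest TAMo coverage stood for it. That choice can raise promoter ratios, and how far it shapes the values here and below was not tested. The promoter of Slc45a4 had 147 reads in vehicle and 585 reads in TAMo (log2 ratio 1.69, 1.43 to 1.96) and that of Samd4 133 and 347 reads (1.08, 0.79 to 1.38). By contrast the promoter of Slc6a6 had 518 and 622 reads (−0.04, −0.21 to 0.13) and that of Atxn2 195 and 202 reads (−0.25, −0.54 to 0.04). Over all genes with a shared promoter region, the median promoter log2 ratio was 0.04 for 8001 genes with no member, 0.07 for 2008 genes with 1, 0.10 for 576 genes with 2, 0.10 for 212 genes with 3 and 0.07 for 106 genes with 4 or more. The share of these promoters above 0 was 56.6%, 61.0%, 64.6%, 63.7% and 66.0%. These steps are small beside the spread of promoters, whose quartiles among genes with 4 or more members were −0.10 and 0.40.

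Gene lists for T cell biology held few members near the best known genes of effector and inhibited T cells. The background for these counts is 6.78%, over shared distal regions within 100 kb of a coding start site, as in the lists. The median log2 ratio of 0.38 is over all shared distal regions, with those beyond 100 kb included, where the median was 0.45. The lists were not matched for vehicle coverage. The share of members falls from 17.5% in the lowest decile of that coverage to 0.0118% in the highest. How far this shapes the shares of the lists was not tested. Of 273 shared distal regions nearest to effector genes, 5 were members (1.83%, 0.785 to 4.22%; median log2 ratio 0.06). A pair lay near Gzma, granzyme A, with 85 and 498 reads (ratio 4.75, 3.77 to 6.05) and 29 and 161 reads. The others named by the rule lay near Zeb2, a transcription factor of terminal effector cells (60 and 392 reads), and Klrg1, a receptor of short-lived effector cells (39 and 212 reads), whose promoter had a log2 ratio of 2.31 (1.71 to 2.97). For inhibitory receptors and exhaustion the count was 4 of 318 (1.26%, 0.490 to 3.19%; median 0.09). They included sites near Egr3, a transcription factor linked to anergy (29 and 223 reads), Maf (26 and 184 reads) and Cd101 (29 and 181 reads).

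Naive, memory and stem factors had 19 of 519 (3.66%, 2.36 to 5.65%; median 0.26). Lef1, a partner of beta-catenin in naive and memory T cells, had 3 members, with 76 and 750 reads (chr3:131056970-131057793; ratio 8.0), 80 and 638 reads, and 20 and 184 reads, while its promoter had a log2 ratio of −0.47 (−0.65 to −0.30). Klf3 had 3 of 16 and Foxp1, a factor that keeps T cells quiescent, 3 of 114. Cell cycle genes had 3 of 126 (2.38%, median 0.08), at the cyclin genes Ccnd3, Ccnd2 and Ccnb1. Chemokine receptors and adhesion had 7 members, 2.72% of their regions. One lay 11446 bp from Ccr7, the receptor that brings T cells to lymph nodes, with 170 and 1139 reads (ratio 5.43, 4.62 to 6.42), and others near Cxcr6 and Xcr1.

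Activation factors stood close to the background. AP-1, NFAT and other activation factors had 24 of 416 (5.77%, 3.91 to 8.44%; median 0.18). Tnfaip3, which encodes A20, an inhibitor of NF-kB, had 3 of 33, with 104 and 551 reads, 98 and 542 reads, and 55 and 479 reads (ratio 7.06 at the last), all between genes. Fosl2, an AP-1 subunit, had 3 of 11, with 78 and 489 reads (ratio 5.08), 21 and 232 reads (ratio 8.96), and 43 and 225 reads, and Nfatc2, a calcium-dependent factor, 3 of 22. Cytokine receptors had 12 of 260 (4.62%). Csf2rb, the shared beta chain of the receptors of GM-CSF, IL-3 and IL-5, had 3 of 8 within its introns, with 56 and 340 reads, 35 and 288 reads, and 26 and 185 reads. Il12rb2, a chain of the IL-12 receptor, had 2 of 21.

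Lists for TGF-beta, interferon, hypoxia and amino acid stress were at the background or slightly above it. TGF-beta and regulatory T cell genes had 20 of 276 (7.25%, 4.74 to 10.9%; median 0.42). Pmepa1, a feedback inhibitor of TGF-beta signalling, had 4 of 16, with 25 to 51 reads in vehicle and 138 to 272 reads in TAMo. Tgfbr2, a TGF-beta receptor chain, had 3 of 39, with 91 and 784 reads (chr9:116114183-116114763; ratio 6.99, 5.62 to 8.78), 75 and 731 reads, and 74 and 521 reads, beside a promoter log2 ratio of −0.05 (−0.20 to 0.10). The inhibitor Smad7 had 3 of 36. The interferon response had 7 of 96 (7.29%, 3.58 to 14.3%; median 0.34), near Mx1, Irf1 and Rsad2 among others; Rsad2 had 41 and 466 reads (ratio 9.22). Mx1, an antiviral GTPase, had 56 and 310 reads at 5313 bp, and its promoter had a log2 ratio of 1.60 (1.29 to 1.92).

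Glycolysis and hypoxia had 15 of 185 (8.11%, 4.98 to 12.9%; median 0.37). Egln3, an oxygen-sensing prolyl hydroxylase, had 3 of 23, the largest ratio from 26 and 348 reads (ratio 10.9, 7.28 to 16.9), Ndrg1, a hypoxia-induced gene, 3 of 14, and Pfkfb3, an activator of glycolysis, 2 of 17. Arginine, amino acid and stress genes had 7 of 100 (7.0%; median 0.54). Ass1, which makes the precursor of arginine from citrulline, had 2 of 11, with 58 and 381 reads and with 19 and 240 reads. Chac1, a target of the integrated stress response that degrades glutathione, had 2 of 8, although its promoter was lower in TAMo (log2 ratio −0.66, −0.83 to −0.48). Arg2, an arginase, had 1 of 3 (84 and 436 reads). Apoptosis and p53 genes had 11 of 236 (4.66%) with a median log2 ratio of 0.54. They included Bcl2l11, the gene of the death factor BIM, with 45 and 680 reads (ratio 12.3, 9.06 to 17), and the p53 targets Mdm2 and Sesn1. Housekeeping genes had 3 of 79 (3.80%), all near Ywhaz.

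**Figure D5:**
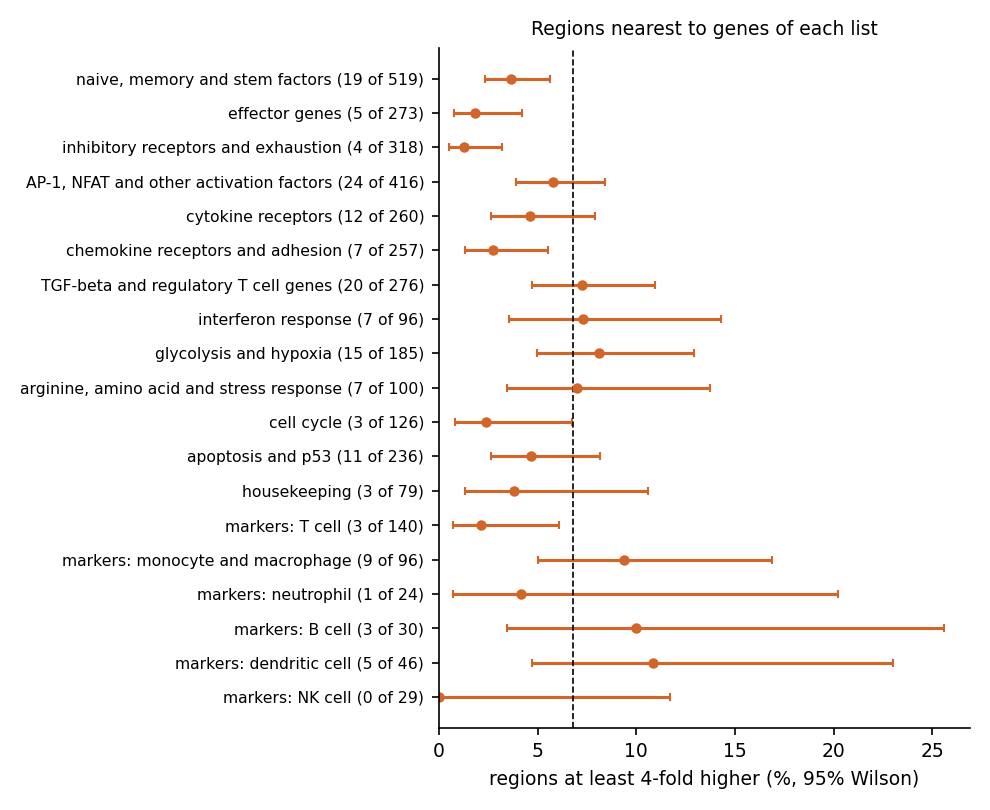
Share of shared distal regions at least 4-fold higher in TAMo (x axis, %) among regions nearest to the genes of each list, with 95% Wilson intervals and the counts beside each name; the dashed line is the share over all regions within 100 kb of a coding start site (6.78%). Effector genes (1.83%) and inhibitory receptors (1.26%) lie lowest among the T cell lists, and lists with under 20 regions are left out. The lists are not matched for vehicle coverage.

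Among the members near microRNA genes, some lay beside the imprinted cluster of chromosome 12, where a region 857 bp from Mir493 had 19 reads in vehicle and 282 reads in TAMo and a second had 17 and 174 reads, and 1700 bp from Mir378c in an intron near Samd4 (27 and 340 reads).

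The labelled cell type matched its markers: of 12 T cell markers listed, 11 were found, and all 11, among them Cd3e, Cd8a and Cd8b1, had promoter peaks in both libraries. The other, Trac, was not among the coding genes used and was not examined. Promoter coverage of the 11 summed to 1195 in vehicle and 1228 in TAMo in units of background. Of 140 shared distal regions near these genes, 3 were members (2.14%). Markers of the added cells were also examined. Of 21 monocyte and macrophage markers, 10 had a promoter peak in vehicle and 13 in TAMo. Ly6c2, Lyz2, Ccr2, Mpeg1, Clec4a2, Tyrobp and Fcer1g had none in either. Csf1r, Itgam, Adgre1 and Cd300c had one in TAMo alone, and Fcgr1 in vehicle alone. The TAMo peak list was the longer, with 225656 rows against 163215, and the share over all promoters was not computed. Of 8 B cell markers, 4 had a promoter peak in vehicle and 6 in TAMo, with Pax5 and Blnk in TAMo alone. The number was the same in both libraries for dendritic cell (4), NK cell (2) and erythroid and platelet (2) markers. Promoter coverage summed over the 9 monocyte and macrophage markers with a shared promoter region was 355 in vehicle and 456 in TAMo. For each gene this was again the promoter region of highest TAMo coverage. Of these 9, 8 were above 0 in log2 ratio (median 0.42), against 56.6% of promoters of genes with no member (median 0.04). Near this list 9 of 96 shared distal regions were members (9.38%, 5.01 to 16.9%), including 50 and 566 reads at 11480 bp from Adgre1 (ratio 9.18, 6.87 to 12.5) and 2 members near Cd300a, whose promoter had 34 and 166 reads. Dendritic cell markers had 5 of 46 (10.9%, 4.73 to 23.0%), B cell markers 3 of 30, neutrophil markers 1 of 24 with no promoter peak at any of the 10, and NK cell markers 0 of 29 (up to 11.7%). Erythroid and platelet markers had 1 of 5. The part of chromatin from other cells in the members was not tested.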

How the data were processed

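ATAC-seq libraries of 1 vehicle and 1 TAMo culture were made from about 50000 CD8+ T cells each and sequenced as paired reads of 150 bp, per the labels' protocols. Trimmomatic 0.36 is named with Bowtie2, MACS2 and build mm10, per the submitters' processing notes. Settings for read shifting, duplicates and peak calling were not given in the sources used here. For each library 1 peak list was deposited by the authors, called separately, with 163215 rows for vehicle and 225656 for TAMo. Each deposited row holds a score, a fold enrichment of the summit (a ratio to local background), a −log10 p, a −log10 q and the summit's offset. Only peaks above the calling threshold are listed (lowest −log10 q 1.32 and 1.34), so a region needed a peak in both libraries.

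Coverage k and local background b at a summit were solved from the fold, (k + 1)/(b + 1), and the −log10 p, a Poisson upper tail; a whole k was accepted if it met the −log10 p to 1% of the step from one count to the next. This left out 30 vehicle rows and 48 TAMo rows, and 22 shared regions. The solver was tested on simulated data. The most frequent background, 4.71 reads in vehicle and 5.80 reads in TAMo (ratio 1.23), stood for depth. Each library in a region was represented by its summit of highest −log10 q. Ratios carry 95% exact binomial (Clopper-Pearson) intervals and shares 95% Wilson intervals. Genes were those of GENCODE M21 (basic set), and a region was assigned to the nearest coding start site within 100 kb. A gene's promoter ratio came from its shared promoter region of highest TAMo coverage. The 20 gene lists held 340 genes, of which 338 were found; Trac and Gata1 were not.

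The members, lists and naming rules were chosen with earlier results of these data known. The rule named the 10 members with the largest ratio (at least 20 vehicle reads, summits within 100 bp), the 10 with the highest TAMo coverage, the 10 genes with the most members, up to 3 genes per list and the regions next to the 4-fold line. The letters were to be searched in the genome; as no genome sequence was used here, they were searched in windows covered by RefSeq promoters (GRCm38.p6) and GENCODE transcripts, a choice made after the files were seen, as was the choice of the regions near microRNAs. Overlapping sources gave 0 conflicting windows. With 1 library per group no test between groups was made. Python 3.11.15, numpy 2.4.6, pandas 2.3.3, scipy 1.17.1 and matplotlib 3.10.9 were used.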

Additional observations from a re-analysis of the deposited data

How the results depend on the processing

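The number of regions depended most on how depth and fold were set. Against 5966 regions, there were 3285 after centring on the median of shared distal regions, 1509 with the local background at each summit, 2628 whose interval lay at or above 4, 10733 at 3-fold and 1040 at 8-fold; the other 9 settings gave 5259 to 5966. The share in introns was 57.4% at 8-fold and otherwise 54.5 to 56.2%. The share outside coding genes, noncoding genes included, was 41.7%, 39.5% at 8-fold and otherwise 40.8 to 42.4%. The share over 10 kb from a start site was 83.2% with the local background, 83.0% for regions over 2.5 kb from coding start sites and 83.4% at 8-fold. AP-1 letters were in 47.6% of 63 windows with the local background, in 27.5% of 40 windows at 8-fold and in 30.2% of windows of 50 bp on either side of the summit, against 16.6% of all such windows. CTCF letters were in 0.794% of windows after centring on distal regions and in 0 of 40 at 8-fold. Of 88 values under other settings, 73 were classed as the same as the reported value and 15 as moved. The 73 include the setting that used each library's lowest background. That background, 4.71 reads in vehicle and 5.80 reads in TAMo, is the most frequent one to these digits, so its values could not differ. Taking the summit of highest coverage also left the reported values unchanged. For shares, the same meant inside the Wilson interval of the reported share, which covers counting error only. Numbers of regions have no such interval and were classed by a fixed fold limit. The 9 classed as the same (5259 to 5966) were not compared with any spread. The cause of the moved values was not tested. Shorter windows, windows outside coding sequence and leaving out regions of high local background were chosen after seeing the data. No paired analysis was possible because there was 1 library per group, and leaving out a replicate was not possible. Depth limits single ratios: 11.1% of members had under 20 reads at the vehicle summit. Sites with a peak in 1 library only were not analysed here, and motif shares rest on 4.94% of the members.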
